A study of Mus musculus with 24 samples.

Results

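Hippocampal RNA of female mice kept in an enriched environment (EE) was compared between mice lacking functional CBP in forebrain excitatory neurons and their control littermates. The members are the 6 mice labelled as EE-housed among the 12 mice of the series, 3 CBP-ifKOs and 3 controls, and all genes that passed a filter on low counts, which were 17625 of the 55471 genes in the count table. CBP-ifKOs carry floxed Crebbp alleles and the Camk2a-creERT2 driver, a tamoxifen-activated recombinase placed under a promoter active in forebrain excitatory neurons, whereas the controls are littermates without creERT2. Mice of both genotypes, 3 to 6 months old and of C57BL/6 background, received 5 intragastric doses of tamoxifen (20 mg/ml), so tamoxifen is shared by all groups. EE mice spent 1 month in a large box with running wheels and toys that were changed at intervals, and the other 6 mice of the series lived in standard cages (SC). Each hippocampus was sequenced on its own, and its 2 sequencing runs are merged into 1 column of counts.

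Crebbp encodes CBP, a lysine acetyltransferase and transcriptional coactivator that is recruited to promoters and enhancers by CREB and other factors and acetylates histones there. In hippocampal neurons, calcium and cAMP signals reach the genome in part through CREB and its coactivators, which bind the cAMP response element (CRE). The paralog p300, encoded by Ep300, has the same catalytic fold and overlapping partners. The recombined allele removes the catalytic region of CBP but still gives a truncated product, and cells that do not express the driver, such as interneurons, glia and vascular cells, keep the intact gene, so the bulk values below mix recombined and intact cells.

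The control libraries held between 26874015 and 27971488 counts and the CBP-ifKO libraries between 33143606 and 37448388. A count of 3 stands for 0.0801 to 0.112 CPM (counts over the library total), a limit that covers counting error alone. Every CBP-ifKO count was even, whereas between 54.6% and 55.1% of the nonzero control counts were odd, so the tests were repeated with the CBP-ifKO counts halved, which gives libraries of 16571803 to 18724194 counts. Why the counts are even is not given in the sources used here. Control mouse 1 stood apart by transcripts of the choroid plexus, the secretory epithelium of the ventricles. Summed over the list of 25 choroid plexus markers, 21 of them tested, the level was 2258 CPM in this mouse. It was between 239 and 319 CPM in the other 5. Results are therefore also given without control mouse 1. Markers of dentate granule cells, CA1, CA2 and CA3 pyramidal cells were present in all 6 libraries, with summed levels of at least 760, 795, 216 and 1055 CPM. Each sample is a separate mouse, so p-values measure the spread between these mice. With 3 mice against 3 an exact two-sided permutation test on 1 gene cannot give a p below 0.1, so all adjusted p-values come from edgeR's quasi-likelihood test across all genes with Benjamini-Hochberg adjustment.

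Crebbp (ENSMUSG00000022521, chromosome 16 from 4081328 to 4213997 of GRCm38) was lower in each CBP-ifKO than in any control. It had 72.1, 76.6 and 69.8 CPM in the controls and 44.9, 48.3 and 46.9 CPM in the CBP-ifKOs. The fall, from 72.8 ± 3.47 CPM in controls (SD, n = 3) to 46.7 ± 1.72 CPM in CBP-ifKOs (SD, n = 3), was -0.64 on the log2 scale (standard error 0.06, adjusted p = 4.07e-04). Counts per gene do not separate transcripts of the intact allele from those of the recombined one. In bulk tissue, fewer cells of a type and less RNA per cell cannot be told apart, here or below. Ep300 overlapped between the groups, with 61.6, 84.7 and 65.1 CPM in controls and 68.2, 80.4 and 73.4 CPM in CBP-ifKOs, and was not called (log2 fold change 0.07, standard error 0.11, adjusted p = 0.775).

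Genes carried by the driver construct were counted as well. Esr1, the estrogen receptor gene whose ligand-binding part is fused to Cre in creERT2, had 4.36, 5.29 and 3.48 CPM in controls and 67.5, 81.6 and 80.7 CPM in CBP-ifKOs (log2 fold change 4.13, standard error 0.13, adjusted p = 4.58e-08), and the counts do not show which exons carried the reads. Arsi, a sulfatase gene that lies beside Camk2a and is carried by the driver's artificial chromosome, rose from 0.695, 1.19 and 1.10 CPM to 5.41, 6.51 and 6.84 CPM (log2 fold change 2.65, standard error 0.21, adjusted p = 2.08e-04). Camk2a itself had 4002, 4273 and 4356 CPM in controls and 3695, 4293 and 3807 CPM in CBP-ifKOs, which overlap (log2 fold change -0.10, standard error 0.06, adjusted p = 0.404). Slc6a7, which was listed with the driver genes, overlapped as well (log2 fold change -0.0005, standard error 0.07, adjusted p = 0.998). The values of Esr1 and Arsi follow the genotype labels of all 6 mice, and both are counted among the increased genes below.

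In EE-housed mice more of the called genes were decreased than increased in CBP-ifKOs, whereas 8285 of all genes tested had a negative log2 fold change. In all, 805 of 17625 genes tested (4.57%) had an adjusted p below 0.05, of which 623 (3.53% of those tested) were decreased and 182 (1.03%) increased in CBP-ifKOs. In every one of the 805 genes the 3 CBP-ifKOs lay on one side of the 3 controls, a pattern that 13.2% of all genes tested showed in the lower and 12.5% in the higher direction. The changes were mostly small. The median log2 fold change was -0.42 for the decreased and 0.41 for the increased genes, beside 0.01 for all genes tested, and 51 decreased and 20 increased genes changed more than 2-fold. Decreased genes had a median level of 79.5 CPM in controls and increased genes one of 18.6 CPM, beside 16.5 CPM for all genes tested. Without control mouse 1, 701 genes were called, 561 decreased and 140 increased, and 586 of them were among the 805. With CBP-ifKO counts halved the number was 815, of which 783 were shared. The number of calls depended on single mice: 285 genes were called without control mouse 3 (249 decreased, 36 increased), 286 without CBP-ifKO mouse 3 (241 and 45), 431 without CBP-ifKO mouse 1 (355 and 76) and 447 without CBP-ifKO mouse 2 (375 and 72), whereas leaving out control mouse 2 gave 1016 (281 of them increased). Of the calls in these fits, 276, 279, 389, 415 and 683, in that order, were among the 805. The 210 genes called in the main test and in all 16 alternatives were 187 decreased and 23 increased genes, and the genes described below are among them unless their loss is stated.

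**Figure D1:**
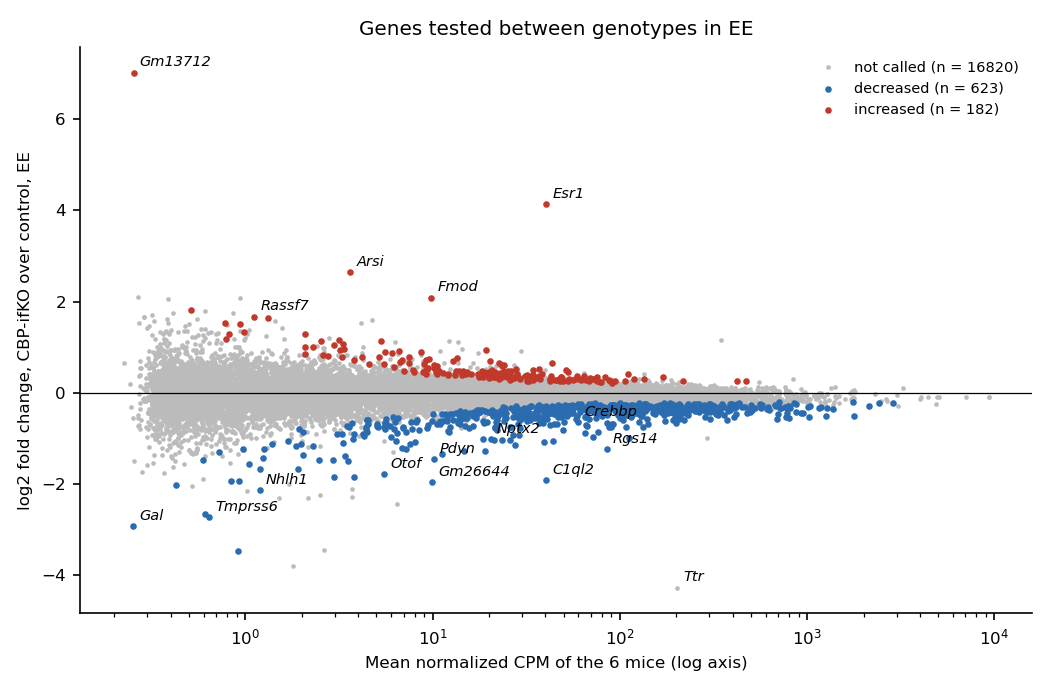
Log2 fold change between genotypes in EE (CBP-ifKO over control, vertical axis) against the mean normalized CPM of the 6 mice (horizontal log axis) for the 17625 genes tested, with the 623 decreased genes in blue, the 182 increased genes in red and the rest in grey. Most blue points lie between 0 and -1 at levels above 10 CPM, Esr1 at 4.13 stands far above the other well-detected genes, and Gm13712 at the upper left had 0 counts in every control, so its fitted value depends on the prior count.

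The decreased gene with the smallest p-value was Rgs14 (ENSMUSG00000052087, chromosome 13 from 55369732 to 55384687), a regulator of G protein and MAP kinase signaling known for its high expression in CA2. It had 116, 116 and 126 CPM in controls and 45.1, 51.9 and 54.8 CPM in CBP-ifKOs (log2 fold change -1.24, standard error 0.08, adjusted p = 3.57e-05). C1ql2 (ENSMUSG00000036907, chromosome 1 from 120340582 to 120343174), which encodes a secreted C1q-like protein of mossy fiber synapses, had 58.8, 55.8 and 76.9 CPM in controls and 14.8, 18.03 and 18.03 CPM in CBP-ifKOs. It changed by -1.91 on the log2 scale (standard error 0.12, adjusted p = 3.57e-05), and no CBP-ifKO came near the lowest control. The long noncoding RNA Gm26644 fell alongside, from 16.1, 13.7 and 17.7 CPM to 3.70, 4.37 and 4.07 CPM (log2 fold change -1.97, standard error 0.13, adjusted p = 3.57e-05).

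Further genes of this rank followed. Tesc, a calcium-binding protein, had 30.2, 29.5 and 35.4 CPM in controls and 16.5, 14.7 and 15.1 CPM in CBP-ifKOs (log2 fold change -1.04, adjusted p = 2.72e-04). Thbs3, a thrombospondin of the extracellular matrix, had 34.5, 39.3 and 40.6 and 17.7, 19.0 and 14.7 CPM (-1.15, adjusted p = 2.72e-04). Rin1, a Ras effector that acts on Rab5 and Abl, had 111, 113 and 112 and 68.0, 74.9 and 67.1 CPM (-0.68, adjusted p = 2.72e-04). The groups were far apart in each of these genes relative to the spread within a group. Stac2, an adaptor of voltage-gated calcium channels, reached -0.89, the RNA-binding protein gene Csdc2 -0.72, and the ankyrin-repeat genes Ankrd63 and Sowaha -1.02 and -0.64 on the log2 scale.

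Low-level transcripts were also called. The basic helix-loop-helix factor gene Nhlh1 (log2 fold change -2.14, standard error 0.27) was at 1.98, 1.92 and 1.94 CPM in controls and at 0.312, 0.534 and 0.471 CPM in CBP-ifKOs, and the noncoding RNA 4921539H07Rik was decreased as well (-1.86, standard error 0.22). The controls of Nhlh1 were nearly equal, and each CBP-ifKO was far below them.

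Increased genes were fewer. Fam229b, a gene with little known function, had 18.2, 18.5 and 19.2 CPM in controls and 27.8, 28.0 and 28.2 CPM in CBP-ifKOs (log2 fold change 0.59, standard error 0.07, adjusted p = 0.00128). The adaptor gene Shd had 16.7, 13.2 and 16.3 CPM in controls and 25.2, 24.2 and 25.8 CPM in CBP-ifKOs (0.70, adjusted p = 0.00292). Cdc25a, a phosphatase that activates cyclin-dependent kinases, had 7.06, 5.67 and 5.42 and 11.5, 11.3 and 10.9 CPM (0.89, adjusted p = 0.00328). All 3 genes were higher in each CBP-ifKO, and the CBP-ifKOs differed little among themselves. Next came Camk2n2, described with the calmodulin kinases, Asl, the argininosuccinate lyase of the urea cycle (0.65), Tfr2, a transferrin receptor (0.76), Map4k2, a kinase of the JNK pathway (0.41), the semaphorin receptor gene Plxna3 (0.46), Gkap1, an anchoring protein of cGMP-dependent kinase (0.71), and Cchcr1, a coiled-coil protein gene (0.90). Gm13712, a pseudogene chosen after its values were seen and whose reads may be shared with its parent gene, had 0 counts in the controls and 0.625, 0.480 and 0.413 CPM in the CBP-ifKOs, at least 4.64-fold higher than a floor of 3 counts per control library. It did not pass the filter once the CBP-ifKO counts were halved.

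**Figure D2:**
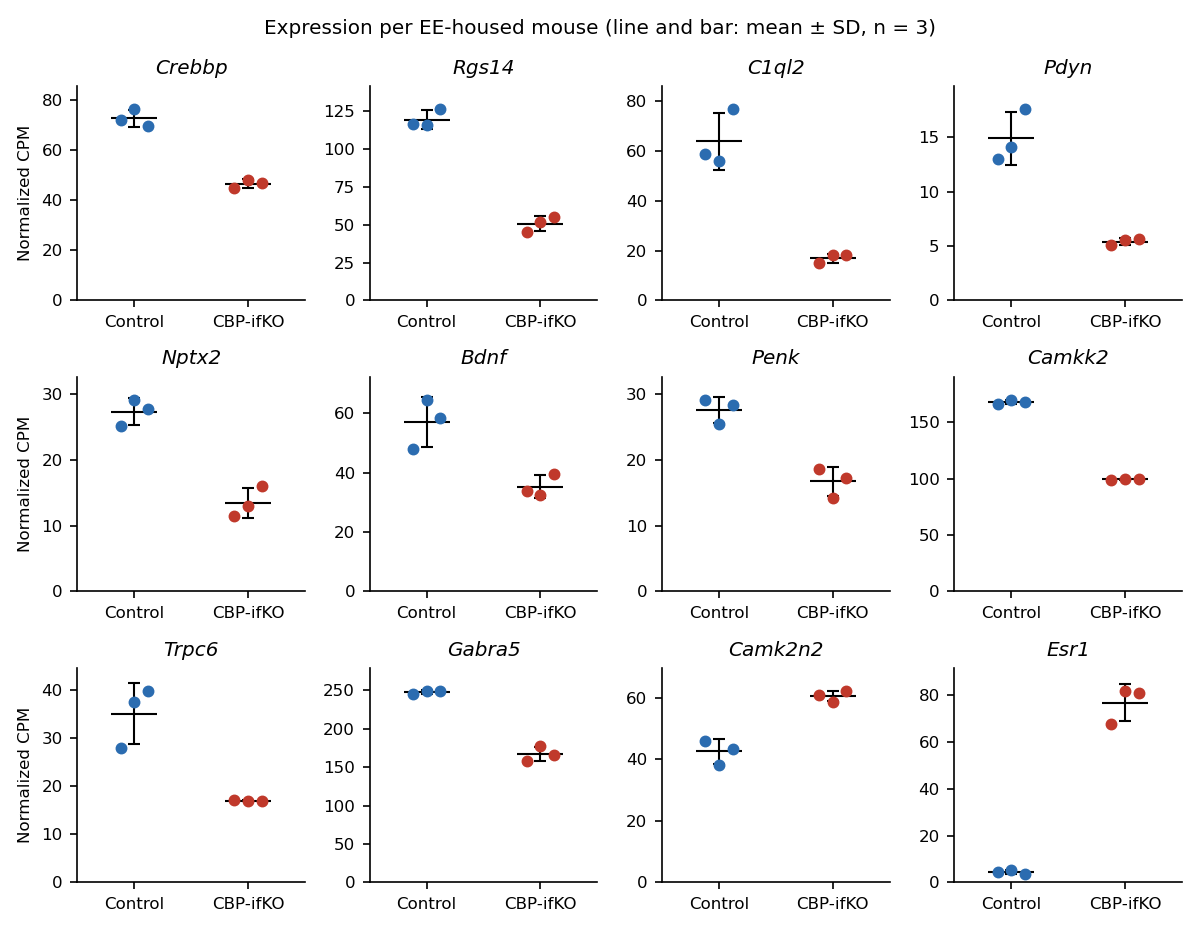
Normalized CPM of single genes (vertical axes, each from 0) in each EE-housed control (blue) and CBP-ifKO (red), with the mean and SD of the 3 mice in black. In each panel the groups do not overlap. The fall relative to controls is largest in C1ql2, from 63.8 to 17.0 CPM on average, and Camk2n2 and Esr1 are the panels in which CBP-ifKOs are higher.

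Among transmitters and trophic factors that neurons secrete, a few genes changed strongly. Of 23 neuropeptide and granin precursors tested, 4 were decreased (17.4%, beside 3.53% of all genes tested), with a median log2 fold change of -0.23 for the list beside 0.01 for all genes tested. Pdyn (chromosome 2 from 129686565 to 129699844), the precursor of dynorphins, had 12.96, 14.1 and 17.6 CPM in controls and 5.05, 5.55 and 5.599 CPM in CBP-ifKOs (log2 fold change -1.46, standard error 0.13, adjusted p = 2.72e-04). The enkephalin precursor Penk (chromosome 4 from 4133531 to 4138819) had 29.1, 25.4 and 28.3 and 18.7, 14.2 and 17.3 CPM (-0.72, standard error 0.10, adjusted p = 0.00370). For both opioid precursors the lowest control lay well above the highest CBP-ifKO. Cck, the cholecystokinin precursor, reached -0.44 (adjusted p = 0.0165) but was not called without control mouse 3 (0.0706), CBP-ifKO mouse 1 (0.0648) or CBP-ifKO mouse 2 (0.0706). The galanin gene Gal was called from 0.366, 0.383 and 0.586 CPM in controls and 0, 0.0534 and 0.118 CPM in CBP-ifKOs, levels of a few counts, and lost its call (adjusted p from 0.0521 to 0.151) whichever mouse was left out.

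Bdnf (chromosome 2 from 109674700 to 109727007), the brain-derived neurotrophic factor of activity-dependent plasticity, had 47.9, 64.5 and 58.6 CPM in controls and 33.8, 32.3 and 39.7 CPM in CBP-ifKOs (log2 fold change -0.69, standard error 0.11, adjusted p = 0.00546). Control mouse 1 was the lowest control, and without it the log2 fold change was -0.80. Among 10 neurotrophins and receptors tested, all had a negative log2 fold change and 4 were decreased (40.0%, beside 3.53% of all genes tested, of which 8285 of 17625 were negative), including Sorcs3, a sorting receptor of the Vps10p family (57.1, 59.1 and 64.0 CPM in controls, 46.4, 46.2 and 44.6 CPM in CBP-ifKOs, -0.39, adjusted p = 0.00699). The other calls in this list, Sort1 at -0.30 and Sorcs2 at -0.25, were lost without control mouse 3 (adjusted p 0.0969 and 0.138), CBP-ifKO mouse 1 (0.121 and 0.115) or CBP-ifKO mouse 3 (0.153 and 0.191), and Sorcs2 also without each of the other 3 mice. Nptx2 (chromosome 5 from 144545902 to 144557478), a neuronal pentraxin that clusters AMPA receptors, had 25.1, 29.1 and 27.8 CPM in controls and 11.4, 13.02 and 15.97 CPM in CBP-ifKOs (log2 fold change -1.02, standard error 0.12, adjusted p = 9.26e-04). With C1ql2 it was 1 of 2 called among 11 pentraxins, C1q-like proteins and cerebellins (18.2%, beside 3.53% of all genes tested). The median of this list was -0.20, and both calls held whichever mouse was left out.

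Promoter sequences were examined because CBP is recruited by CREB at the CRE. RefSeq promoter windows of GRCm38.p6, from 250 bases before to 50 after each listed start, were matched by symbol for 447 of the 623 decreased genes, 133 of the 182 increased genes and 12485 of the 17625 genes tested. The full CRE, TGACGTCA, a palindrome, occurred in the windows of 9 of 447 decreased genes (2.01%), 8 of 133 increased genes (6.02%) and 415 of 12485 genes tested (3.32%). Its 5-base core, TGACG on either strand, which every full CRE contains, was in 27.7% of decreased, 33.8% of increased and 33.1% of all matched genes. Bdnf has several listed starts, and its printed window is the one that holds the core, 35 bases before the start. The 250 bases before the start are printed for the called genes named in the text whose core lies within 50 bases of the start and whose window holds no annotated exon, 3 of them decreased and 2 increased. The core is in capitals, each sequence is on the strand of its gene, and a match is a description of letters, not a measured site.
Bdnf, decreased, plus strand, chr2:109692186-109692435: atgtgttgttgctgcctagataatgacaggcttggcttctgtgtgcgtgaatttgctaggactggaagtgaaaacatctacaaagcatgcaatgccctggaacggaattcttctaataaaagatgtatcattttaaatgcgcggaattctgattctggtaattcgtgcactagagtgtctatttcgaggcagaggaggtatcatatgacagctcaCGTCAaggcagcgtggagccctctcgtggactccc
Gm26644, decreased, minus strand, chr19:44695481-44695730: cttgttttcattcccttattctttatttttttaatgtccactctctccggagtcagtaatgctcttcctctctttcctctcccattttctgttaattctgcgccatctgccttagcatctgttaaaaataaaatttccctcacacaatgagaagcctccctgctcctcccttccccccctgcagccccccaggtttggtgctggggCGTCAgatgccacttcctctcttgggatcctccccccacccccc
Cck, decreased, minus strand, chr9:121495695-121495944: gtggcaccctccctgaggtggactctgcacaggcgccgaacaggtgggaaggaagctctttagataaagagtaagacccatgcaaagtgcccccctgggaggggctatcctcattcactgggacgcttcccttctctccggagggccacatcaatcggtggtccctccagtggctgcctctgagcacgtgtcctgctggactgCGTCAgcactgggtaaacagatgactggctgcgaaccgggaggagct
Tfr2, increased, plus strand, chr5:137570470-137570719: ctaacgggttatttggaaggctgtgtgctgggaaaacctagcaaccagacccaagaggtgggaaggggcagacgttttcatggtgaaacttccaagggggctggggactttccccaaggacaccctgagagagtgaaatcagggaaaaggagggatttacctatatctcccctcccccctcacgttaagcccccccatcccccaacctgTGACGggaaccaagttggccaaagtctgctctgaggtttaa
Cast, increased, minus strand, chr13:74770737-74770986: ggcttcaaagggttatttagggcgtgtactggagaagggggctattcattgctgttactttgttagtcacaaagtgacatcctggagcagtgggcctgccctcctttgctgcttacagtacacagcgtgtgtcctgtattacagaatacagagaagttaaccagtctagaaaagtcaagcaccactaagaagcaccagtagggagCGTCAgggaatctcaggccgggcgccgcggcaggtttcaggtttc

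Calmodulin-dependent kinases, which relay calcium signals to synapses and to CREB, were the list with the largest share of calls among those examined for signaling: 7 of 14 genes were decreased (50.0%, beside 3.53% of all genes tested) and 1 increased, with a median log2 fold change of -0.31. The kinase kinases that switch on CaMKI and CaMKIV fell together. Camkk2 (chromosome 5 from 122731170 to 122779409) had 166, 169.7 and 168 CPM in controls and 99.0, 99.4 and 100.01 CPM in CBP-ifKOs, with almost no spread within either group (log2 fold change -0.75, standard error 0.05, adjusted p = 6.52e-05). Camkk1 had 239, 239 and 251 CPM in controls and 149, 167 and 144 CPM in CBP-ifKOs (-0.67, adjusted p = 5.39e-04). Camk1g, a CaMKI isoform enriched in brain, had 35.4, 33.9 and 41.2 and 22.2, 21.1 and 21.6 CPM (-0.77, adjusted p = 7.49e-04), and the kinase-like Camkv 878, 888 and 971 and 629, 663 and 602 CPM (-0.53, adjusted p = 9.26e-04). The 2 genes for inhibitors of CaMKII moved in opposite directions. Camk2n1 fell from 861, 716 and 852 CPM to 555, 576 and 635 CPM (-0.46, adjusted p = 0.00858), whereas Camk2n2 rose from 46.2, 38.2 and 43.5 CPM to 60.9, 58.8 and 62.3 CPM (0.51, adjusted p = 0.00439). Camk4, the nuclear kinase that phosphorylates CREB, was at -0.42 (adjusted p = 0.0466), a call lost without control mouse 2 (0.0924), control mouse 3 (0.136), CBP-ifKO mouse 2 (0.132) or CBP-ifKO mouse 3 (0.176), or with halved counts thinned to the smallest library (0.0544). Increased calls of this list numbered 2 without control mouse 1 or CBP-ifKO mouse 2.

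Other cAMP and MAP kinase feedback genes were led by Ppp1r1a, an inhibitor of protein phosphatase 1, with 85.2, 77.5 and 86.6 CPM in controls and 42.3, 50.4 and 58.1 CPM in CBP-ifKOs (log2 fold change -0.73, standard error 0.10, adjusted p = 0.00285). Of 41 genes in this list, 7 were decreased (17.1%, beside 3.53% of all genes tested) and the median was -0.11. Only Ppp1r1a kept its call in every alternative, and 1 call was left without control mouse 3, CBP-ifKO mouse 1 or CBP-ifKO mouse 3, with 3 left without CBP-ifKO mouse 2 and 4 without control mouse 2.

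Receptors on the neuronal surface gave scattered calls. Among 37 monoamine and neuropeptide receptors tested, 33 had a negative log2 fold change and 5 were decreased (13.5%, beside 3.53% of all genes tested), with a list median of -0.32. Sstr3, a somatostatin receptor of neuronal cilia, had 46.1, 48.6 and 41.7 CPM in controls and 31.5, 29.0 and 25.3 CPM in CBP-ifKOs (log2 fold change -0.67, adjusted p = 0.00259), and the serotonin receptor gene Htr1a had 39.1, 38.4 and 37.9 CPM in controls and 27.7, 28.2 and 23.3 CPM in CBP-ifKOs (-0.54, adjusted p = 0.00464). The groups were separate for both. Sstr1 was at 8.42, 9.66 and 9.64 CPM in controls and 9.47, 6.03 and 5.72 CPM in CBP-ifKOs, where CBP-ifKO mouse 1 lay among the controls, and was not called (-0.38, adjusted p = 0.275). The muscarinic receptor genes Chrm1 and Chrm3 and the serotonin receptor gene Htr2a, none of which kept its call in every alternative, made up the other calls, and 2 receptors of the list were called without control mouse 3 or without CBP-ifKO mouse 3 and 3 without CBP-ifKO mouse 2.

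Of 14 GABA receptor genes 2 were decreased (14.3%, beside 3.53% of all genes tested). Gabra5, an extrasynaptic subunit typical of hippocampal pyramidal cells, had 245, 249 and 249 CPM in controls and 158, 177 and 166 CPM in CBP-ifKOs (log2 fold change -0.57, standard error 0.06, adjusted p = 6.96e-04). Gabrd, the tonic-inhibition subunit of granule cells, was at -0.54 (adjusted p = 0.0121) and missed the threshold without control mouse 3 (0.0645). The metabotropic glutamate receptor gene Grm3 had 46.2, 47.0 and 53.4 CPM in controls and 29.9, 31.5 and 36.5 CPM in CBP-ifKOs (-0.58, adjusted p = 0.00480), as the 1 called of 7 genes in its list (14.3%, and 2 without control mouse 2). Of 17 ionotropic glutamate receptor genes, 14 had a negative log2 fold change, with a median of -0.19, but the only call by edgeR (5.88%) was the NMDA receptor subunit gene Grin2a (-0.33, adjusted p = 0.0252). It was lost without control mouse 3 (0.0647) or any CBP-ifKO (0.0612 to 0.107), and 3 genes of the list were called without control mouse 1 and 4 without control mouse 2. Grin2b, at -0.36, fell on the other side of the threshold (adjusted p = 0.0504), with control levels of 635, 839 and 726 CPM and CBP-ifKO levels of 535, 619 and 555 CPM that did not overlap.

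Ion channel genes were mostly at negative log2 fold changes. Of 56 potassium channel and channel-associated genes, 51 had a negative value, as had 8285 of the 17625 genes tested, the median was -0.21 and 12 were decreased (21.4%, beside 3.53% of all genes tested). Kcnip3, a calcium sensor also known as the transcriptional repressor DREAM, had 108, 97.9 and 107 CPM in controls and 66.5, 66.4 and 63.8 CPM in CBP-ifKOs (log2 fold change -0.67, standard error 0.06, adjusted p = 2.72e-04). The inward rectifier gene Kcnj4 had 60.8, 59.8 and 63.0 CPM in controls and 40.4, 38.9 and 37.7 CPM in CBP-ifKOs (-0.65, adjusted p = 3.26e-04). Kcnh4, a voltage-gated channel of the ether-a-go-go family, showed the largest change of the list, from 5.45, 4.87 and 5.24 CPM to 1.61, 2.13 and 1.77 CPM (-1.49, adjusted p = 9.26e-04). Kcnip2, Kcnh3 and Kcnq3 also kept their calls in every alternative, whereas 6 genes of the list were called without control mouse 3 or without CBP-ifKO mouse 3.

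Among 34 sodium and calcium channel genes, 5 were decreased (14.7%, beside 3.53% of all genes tested), with a median of -0.18. Cacna1g, a T-type calcium channel, had 86.6, 105 and 102 CPM in controls and 55.8, 57.2 and 49.5 CPM in CBP-ifKOs (log2 fold change -0.85, standard error 0.08, adjusted p = 4.07e-04), and the sodium channel beta subunit gene Scn3b had 359, 404 and 407 and 294, 302 and 292 CPM (-0.40, adjusted p = 0.00566). These were the calls that held in every alternative. Without control mouse 3 the number of calls was 2, and without each CBP-ifKO it was 3.

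Synaptic vesicle and release genes were examined as a further list. Of 44 tested, 11 were decreased (25%, beside 3.53% of all genes tested) and the median was -0.10. Sv2c, a vesicle glycoprotein, had 35.6, 38.2 and 40.2 CPM in controls and 17.3, 21.1 and 21.6 CPM in CBP-ifKOs (log2 fold change -0.93, standard error 0.09, adjusted p = 4.55e-04). Cplx2, a complexin that clamps SNARE complexes, had 1402, 1540.1 and 1499 CPM in controls and 1003, 1127 and 1008 CPM in CBP-ifKOs (-0.50, adjusted p = 0.00141), and Rph3a, a Rab3 effector, 326, 337 and 333 and 229.8, 260.0 and 258 CPM (-0.42, adjusted p = 0.00488). The remaining 8 calls had log2 fold changes no larger in size than that of Syt17 (-0.56, lost without control mouse 3 at an adjusted p of 0.0511). The number of calls fell to 3 without control mouse 3, 4 without CBP-ifKO mouse 3 and 5 without CBP-ifKO mouse 1.

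Axon guidance genes gave 11 decreased (18.3%, beside 3.53% of all genes tested) and 1 increased gene of 60 tested, with a median of -0.15. Epha10, an ephrin receptor, had 53.0, 55.6 and 55.0 CPM in controls and 32.9, 35.5 and 33.5 CPM in CBP-ifKOs (log2 fold change -0.68, adjusted p = 3.17e-04), the ephrin genes Efna3 and Efnb3 were at -0.47 and -0.39, and the semaphorin genes Sema7a and Sema3e at -0.45 and -0.45. The increased gene was the semaphorin receptor Plxna3, with 44.1, 44.1 and 45.6 CPM in controls and 64.2, 64.4 and 55.8 CPM in CBP-ifKOs. Decreased calls numbered 5 without control mouse 3 or CBP-ifKO mouse 3, and increased calls 2 without CBP-ifKO mouse 3. Of 27 synaptic adhesion genes 22 had a negative log2 fold change and 1 was decreased by edgeR (3.70%, beside 3.53% of all genes tested). It was Lingo3, which encodes a leucine-rich repeat protein (38.4, 40.3 and 41.5 CPM in controls, 24.7, 25.7 and 29.2 CPM in CBP-ifKOs, log2 fold change -0.59, adjusted p = 0.00217).

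**Figure D3:**
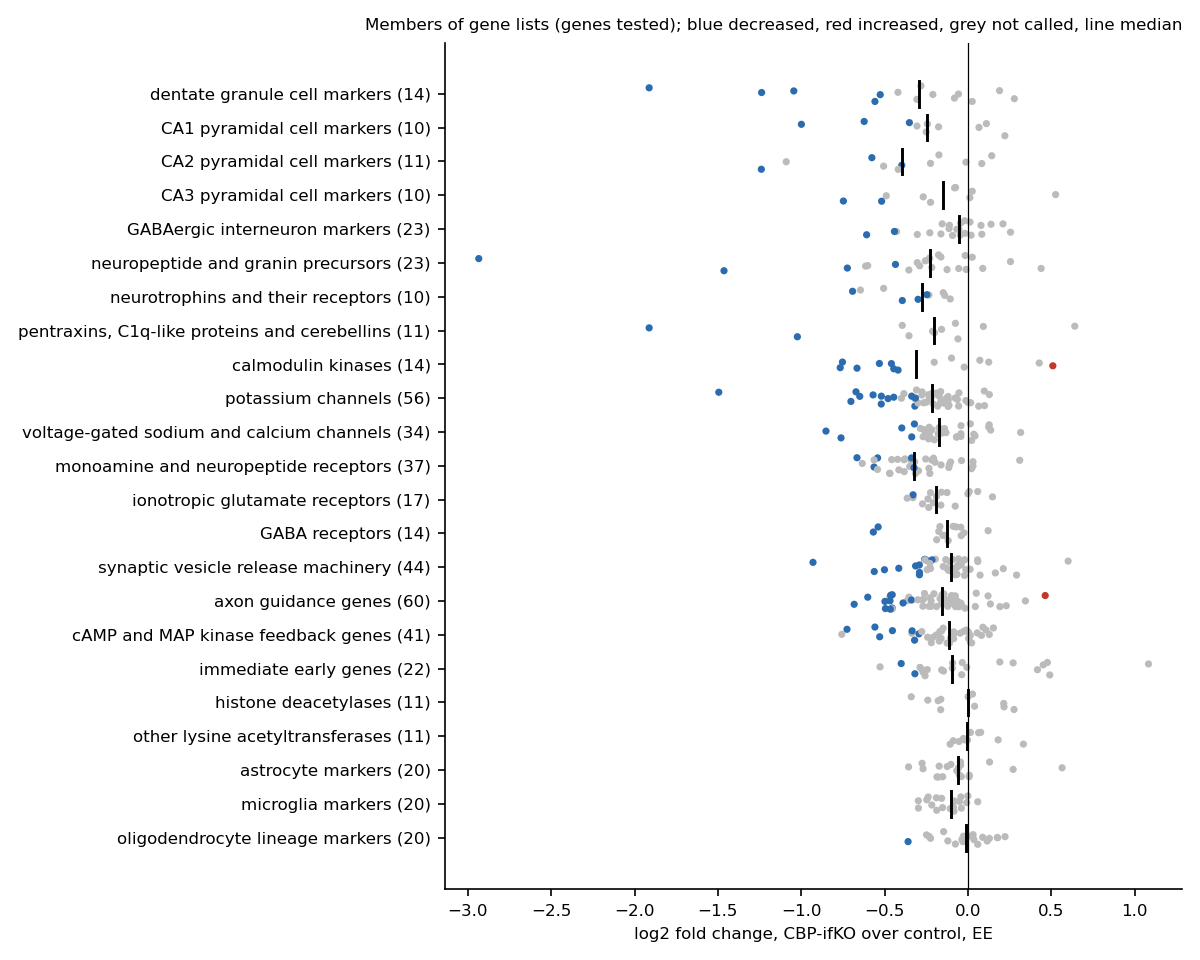
Log2 fold change between genotypes in EE (horizontal axis) for each tested member of the gene lists described in the text, with the number tested beside each name, decreased genes in blue, increased genes in red, uncalled genes in grey and the list median as a black line. Medians of the neuronal lists lie between -0.05 and -0.40, and those of deacetylases and other acetyltransferases at 0.

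Chromatin and transcription factors were examined next. Of 11 histone deacetylase genes and 11 other lysine acetyltransferase genes, edgeR called 0 in either list, and both medians lay within 0.01 of 0. At an unadjusted p below 0.05, 7 deacetylases (5 lower, 2 higher) and 2 acetyltransferases (both higher) differed, as did 3448 of the 17625 genes tested. DESeq2 called 3 deacetylases and 0 acetyltransferases. edgeR called 2 deacetylases decreased without control mouse 2, 1 acetyltransferase increased without control mouse 1, and with CBP-ifKO counts halved Hdac5 (adjusted p 0.0470). Among 12 KAT3 coactivators, CREB factors and their partners, Crebbp and Crtc1 were decreased. Crtc1, a coactivator that carries calcium and cAMP signals to CREB, had 256, 266 and 272 CPM in controls and 185, 217 and 189.7 CPM in CBP-ifKOs (log2 fold change -0.42, adjusted p = 0.00755), a call that was lost without CBP-ifKO mouse 3 (0.0618). Mef2d, an activity-regulated factor, was the first of 4 decreased (16.7%, beside 3.53% of all genes tested) among 24 excitatory neuron transcription factors (-0.42, adjusted p = 0.00872). None of these 4 calls held in every alternative, and 0 were made without CBP-ifKO mouse 3, 1 without CBP-ifKO mouse 1 and 2 without CBP-ifKO mouse 2 or control mouse 3.

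Immediate early genes varied between mice within each group. Their summed level was 919, 1244 and 1041 CPM in controls and 776, 1016 and 1327 CPM in CBP-ifKOs, so the groups overlap, with CBP-ifKO mouse 1 the lowest and CBP-ifKO mouse 3 the highest of all. Of 22 genes, 2 were decreased (9.09%, beside 3.53% of all genes tested) and the median was -0.09. Jun had 90.2, 90.9 and 90.7 CPM in controls and 72.6, 74.8 and 70.7 CPM in CBP-ifKOs (log2 fold change -0.32, adjusted p = 0.00849), lost without CBP-ifKO mouse 3 (0.0621). Egr3, a zinc finger factor induced by activity, had 101, 113 and 105 CPM in controls and 69.7, 77.6 and 94.9 CPM in CBP-ifKOs (-0.40, adjusted p = 0.0429). Its call was lost without control mouse 2 (0.0820), control mouse 3 (0.112), CBP-ifKO mouse 1 (0.124) or CBP-ifKO mouse 2 (0.137).

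Markers of the excitatory cell types that carry the driver gave calls in each subfield, and over all genes tested 3.53% were decreased. The summed level of 11 CA2 markers was 347, 332 and 330 CPM in controls and 223, 216 and 224 CPM in CBP-ifKOs, with Rgs14 and Necab2, a neuronal calcium-binding protein (88.4, 75.3 and 80.5 CPM in controls, 60.4, 51.1 and 52.3 CPM in CBP-ifKOs, log2 fold change -0.58, adjusted p = 0.00322), called in every alternative. The CA2 marker Amigo2, a cell adhesion gene chosen after its values were seen, had 32.1, 40.4 and 29.9 CPM in controls and 39.2, 28.4 and 33.8 CPM in CBP-ifKOs (log2 fold change -0.01). Of the 11 CA2 markers 8 were not called, and Rgs14 and Necab2 made up most of the difference between the sums. The sums of the dentate and CA1 markers were also lower in each CBP-ifKO (760 to 791 CPM against 845 to 1010.4, and 795 to 928 against 1051 to 1160), whereas those of the CA3 markers overlapped (1055, 1180 and 1192 CPM in CBP-ifKOs against 1233, 1184 and 1211 in controls). In the dentate gyrus list, 5 of 14 genes were decreased (35.7%) and 11 had a negative log2 fold change. Besides C1ql2 these included Trpc6, a cation channel, with 27.9, 37.4 and 39.8 CPM in controls and 17.1, 17.0 and 16.9 CPM in CBP-ifKOs (-1.04, adjusted p = 7.94e-04), and Tdo2, the tryptophan dioxygenase, with 8.46, 9.70 and 12.1 and 4.11, 4.48 and 4.24 CPM (-1.24, adjusted p = 0.00133). The highest log2 fold change in the dentate list, 0.28 for Npnt, was not called by edgeR, whereas DESeq2, or edgeR without CBP-ifKO mouse 1, called 1 dentate marker increased. The CA1 genes Wfs1, an endoplasmic reticulum membrane protein, and Fibcd1, a chitin-binding receptor, changed by -0.999 and -0.62, 2 of 3 decreased among 10. The CA3 gene Cpne4, a copine, was at -0.52, 1 of 2 decreased among 10, of which 7 had a negative log2 fold change and the highest, Coch at 0.53, was not called. The number of decreased calls in the CA2, CA1, CA3 and dentate lists ranged from 2 to 4, 2 to 5, 1 to 3 and 4 to 6 when 1 mouse was left out. It was 5 in the CA1 list without CBP-ifKO mouse 1, and 1 in the CA3 list without control mouse 3, CBP-ifKO mouse 2 or CBP-ifKO mouse 3.

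Markers of cell types without the driver were counted next. Over all 17625 genes tested 3.53% were decreased and 1.03% increased, and 3448 had an unadjusted p below 0.05. Among 23 interneuron markers 2 were decreased (8.70%), of which Nos1, the neuronal nitric oxide synthase that pyramidal cells also express, held in every alternative (112, 138 and 127 CPM in controls, 85.2, 88.6 and 73.3 CPM in CBP-ifKOs, log2 fold change -0.61, adjusted p = 0.00421). Without control mice 1 or 3, or CBP-ifKO mice 2 or 3, it was the only call, and 3 were made without control mouse 2 or CBP-ifKO mouse 1. edgeR called 0 of 20 astrocyte markers (5 lower at an unadjusted p below 0.05, 2 decreased by DESeq2) and 0 of 20 microglia markers (4 and 1), with medians of -0.06 and -0.10, and called 1 astrocyte marker decreased without control mouse 1 and 1 microglia marker decreased without control mouse 2. The oligodendrocyte lineage list gave 1 call of 20, Gpr17, a receptor of maturing precursors (-0.36, adjusted p = 0.00948), which was lost without CBP-ifKO mouse 1 (0.0509) or 3 (0.0643), and 2 were called without control mouse 2. Of 20 endothelial and mural markers 1 was increased, Itm2a, a membrane protein gene, with 73.5, 61.5 and 64.7 CPM in controls and 83.4, 80.9 and 89.4 CPM in CBP-ifKOs (0.34, adjusted p = 0.0250). It was lost without control mouse 3 (0.101) or any CBP-ifKO (0.0550 to 0.123), and 2 genes of the list were called without control mouse 1. None of 5 erythroid markers was called by edgeR or DESeq2 or had an unadjusted p below 0.05, so 0 were past each threshold.

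Choroid plexus and meningeal markers followed single mice. Ttr, the transthyretin gene that defines choroid plexus epithelium, had 1125, 19.5 and 8.83 CPM in controls and 32.5, 4.05 and 22.9 CPM in CBP-ifKOs, and its log2 fold change of -4.28 was not called (adjusted p = 0.122) and became 0.49 without control mouse 1. The median of the 21 choroid plexus markers tested was -1.30 with all mice and 0.41 without control mouse 1. Neither edgeR nor DESeq2 called any of them (11 had an unadjusted p below 0.05, as had 3448 of the 17625 genes tested). Without the filter on low counts edgeR called 20 of the 25 listed markers decreased and 1 increased. With the filter it called 2 decreased without control mouse 2 and 1 without control mouse 3. Meningeal fibroblast markers summed to 170, 155 and 166 CPM in controls and 324, 134 and 175 CPM in CBP-ifKOs, highest in CBP-ifKO mouse 1. Of 15, 3 were increased (20.0%, beside 1.03% of all genes tested): the collagen-binding Fmod (3.33, 2.61 and 5.24 CPM in controls, 28.7, 6.30 and 12.6 CPM in CBP-ifKOs, log2 fold change 2.09, adjusted p = 0.0269), Aldh1a2, a retinoic acid synthesizing enzyme (1.13, adjusted p = 0.0329), and the collagen gene Col1a1 (0.72, adjusted p = 0.0393). Aldh1a2 was not called without control mouse 1 (0.0513). No gene of this list was called without control mouse 2, control mouse 3 or CBP-ifKO mouse 3, 1 was increased and 1 decreased without CBP-ifKO mouse 1, and 4 were increased without CBP-ifKO mouse 2 (DESeq2 with all mice called 4, and 9 had an unadjusted p below 0.05). The part of meningeal or choroid plexus tissue in other changes was not tested beyond these fits, and the 805 calls became 859 when the choroid plexus markers were left out of the fit.

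**Figure D4:**
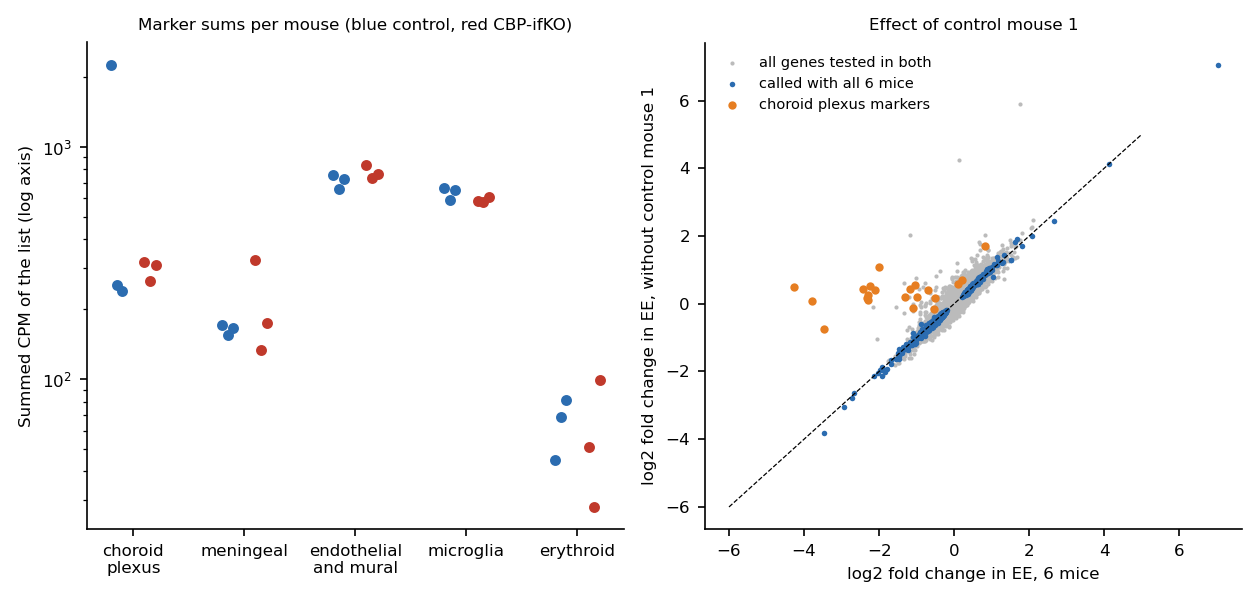
Left, summed CPM (log axis) of marker lists in each EE-housed control (blue) and CBP-ifKO (red), where control mouse 1 is at 2258 CPM for the choroid plexus list. Right, log2 fold change with all 6 mice (horizontal) and without control mouse 1 (vertical) for genes tested in both, where called genes (blue) lie near the dashed line of equal values and most choroid plexus markers (orange) move from below 0 to near or above 0.

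Extracellular matrix genes gave calls in both directions. Of 57, 4 were decreased (7.02%, beside 3.53% of all genes tested) and 3 increased (5.26%, beside 1.03%), with a median of -0.06. Col5a1, a fibrillar collagen, had 26.4, 22.5 and 20.9 CPM in controls and 15.98, 13.7 and 14.0 CPM in CBP-ifKOs (log2 fold change -0.67, adjusted p = 0.00495), and Adamts1, a secreted protease of proteoglycans, 23.3, 30.1 and 25.8 and 15.3, 16.4 and 19.0 CPM (-0.65, adjusted p = 0.00860). Thbs3 belongs to the same list. The basement membrane gene Frem3 rose from 1.06, 1.07 and 1.503 CPM to 3.28, 3.31 and 2.30 CPM (1.29, adjusted p = 0.0115), but missed the threshold without CBP-ifKO mouse 2 (0.0522). Increased calls numbered 1 without control mouse 3.

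Of 26 activin and TGF-beta genes, Acvr1, a type I receptor, was decreased in every alternative (45.5, 50.7 and 47.6 CPM in controls, 33.5, 35.8 and 36.5 CPM in CBP-ifKOs, log2 fold change -0.44, adjusted p = 0.00495), and 2 genes were called in all (7.69%, beside 3.53% of all genes tested, and 1 without CBP-ifKO mouse 2). Of 18 circadian clock genes 3 were decreased, with Nr1d1, a repressor of the clock loop, at 73.9, 79.3 and 78.9 CPM in controls and 55.3, 60.7 and 61.9 CPM in CBP-ifKOs (-0.38, adjusted p = 0.00783), and the time of day at which mice were taken was not compared. Without control mouse 3 or CBP-ifKO mouse 3, 1 clock gene was called, and 2 were without CBP-ifKO mouse 2. Among 18 glucocorticoid target genes edgeR called 0, with a median of -0.09, and DESeq2 called 1 decreased. At an unadjusted p below 0.05, 3 were lower and 1 higher, beside 3448 of the 17625 genes tested. The ATF4 response list gave 1 increased gene of 26 (3.85%, beside 1.03% of all genes tested), and the neurogenesis list 1 decreased of 20 (5.00%, beside 3.53%), and both calls were lost in at least 3 of the fits that left out 1 mouse.

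The number of calls in several lists was more than 1.5 times as high with DESeq2, and the number over all genes rose as well. It called 20 potassium channel genes, 9 sodium and calcium channel genes, 8 monoamine and neuropeptide receptors, 6 ionotropic and 2 metabotropic glutamate receptor genes, 3 synaptic adhesion genes, 7 activin and TGF-beta genes, 4 interneuron markers and 3 neurogenesis genes as decreased. Of the extracellular matrix genes DESeq2 called 7 decreased and 5 increased, and of the increased calls it made 3 in the ATF4 list and 2 each in the calmodulin kinase, axon guidance and endothelial and mural lists. Over all genes it called 1262 of 14908 tested, 1000 decreased and 262 increased. By edgeR these were 805 of 17625, 623 decreased and 182 increased.

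Without a filter on low counts edgeR called 1677 of 32641 genes tested, 1295 decreased and 382 increased, and most of the lists had more calls as well. Decreased were 25 potassium channel genes, 13 sodium and calcium channel genes, 12 monoamine and neuropeptide receptors, 8 ionotropic glutamate receptor genes, 21 axon guidance genes, 11 cAMP and MAP kinase genes, 7 neuropeptide precursors, 5 synaptic adhesion genes and 5 immediate early genes. Decreased calls numbered 8, 6, 5 and 4 in the dentate, CA1, CA2 and CA3 lists, and 4 each in the interneuron and astrocyte lists. The activin and TGF-beta list then had 6 decreased and 2 increased genes, the extracellular matrix list 11 and 7, the glucocorticoid list 1 and 4, and the meningeal list 1 and 11.

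The same genotype contrast in SC-housed mice, which shares no animal with the one in EE, gave side by side values for these genes. There 968 of 17532 genes were called (5.52%), 704 decreased (4.02%) and 264 increased (1.51%). Of the 623 genes decreased in EE, 621 were tested in SC, 618 had the same sign there and 405 were called, which is 65.0% of the EE calls and 57.5% of the SC calls. Of the 182 increased genes, 181 were tested, 174 had the same sign and 88 were called, 48.4% of the EE calls and 33.3% of the SC calls. Over all genes tested in both, 72.0% had the same sign. C1ql2 was at -1.91 in EE and -1.60 in SC, Rgs14 at -1.24 and -1.10, Pdyn at -1.46 and -1.42, Bdnf at -0.69 and -0.65, and Penk at -0.72 and -1.03. The genotype effect was in none of these genes shown to differ between housings: the interaction was called for 0 of 18251 genes by edgeR, with a smallest adjusted p of 0.9998 and 574 genes at an unadjusted p below 0.05, and for 0 by DESeq2, with 545. With no filter on low counts edgeR called 110 of 35081 genes, with a smallest adjusted p of 1.79e-116, whereas DESeq2 tested 35081 genes and called 0. The 110 calls were made in that fit alone, and the level of these genes was not examined.

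The bona fide list, which the study assembled from CBP-ifKO screens that include the SC-housed mice but not those in EE, gave 192 decreased and 19 increased genes, all tested here. In EE all 192 had a negative and all 19 a positive log2 fold change, whereas 8285 of the 17625 genes tested were negative. Of the 192 genes 155 were called decreased (80.7%, beside 3.53% of all genes tested). Of the 19 genes 12 were called increased (63.2%, beside 1.03%). For the decreased genes the median log2 fold change was -0.45 in EE and -0.40 in SC, and 112 of the 192 lay farther from 0 in EE. For the increased genes the medians were 0.45 and 0.47. The SC mice helped to choose the list and the EE mice did not, so EE and SC values are not on equal terms here. Without control mouse 1, 143 and 10 genes were called, and with counts halved 153 and 11. Increased calls fell to 4 without CBP-ifKO mouse 2 and to 6 without control mouse 3 or CBP-ifKO mouse 3. The EE mice were processed with the SC mice in 1 series, and the even counts are common to all CBP-ifKO libraries of both housings.

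**Figure D5:**
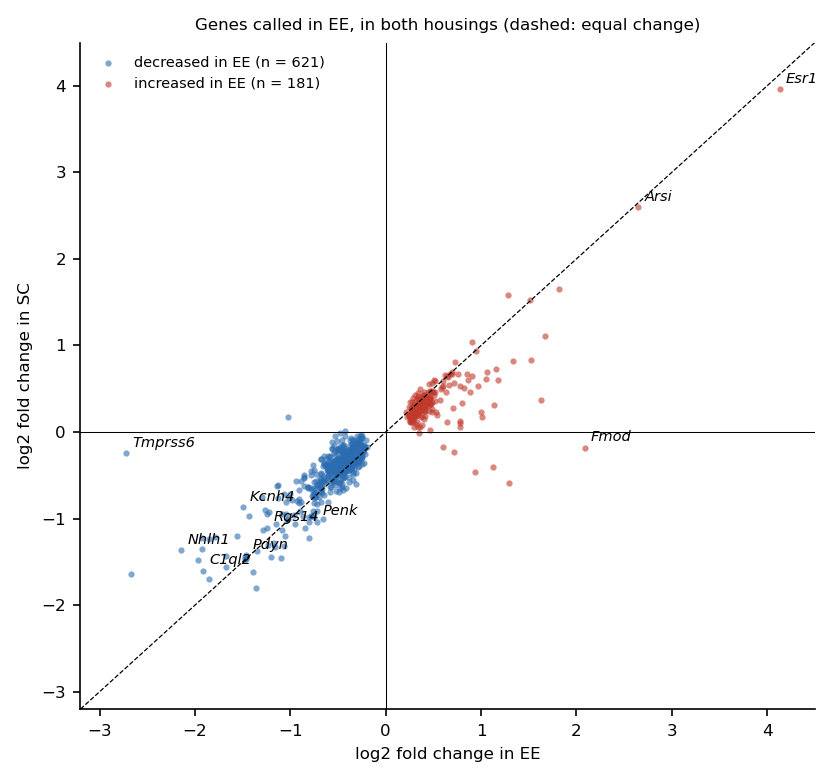
Log2 fold change between genotypes in EE (horizontal) and in SC (vertical) for the 621 decreased (blue) and 181 increased (red) genes called in EE and tested in SC, with a dashed line of equal change. Nearly all points lie in the lower left or upper right quadrant, and Tmprss6 and Fmod, at -0.24 and -0.18 in SC, lie far from the dashed line.

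Of the 5 genes with the smallest interaction p-values, Tmprss6 and Gm11681 were called in EE, and Zp2 was not (0.588, 0.463 and 0.475 CPM in EE controls, 0.930, 0.908 and 0.587 CPM in EE CBP-ifKOs, log2 fold change 0.68, adjusted p = 0.272). Slco1a4 and Myl9 were not called in EE either (adjusted p = 0.0848 and 0.0731). Tmprss6, a membrane serine protease that lowers hepcidin, had 1.03, 1.43 and 0.878 CPM in EE controls and 0.0517, 0.267 and 0.176 CPM in EE CBP-ifKOs, where the log2 fold change was -2.72 (adjusted p = 0.00756), against 0.371, 0.529 and 0.508 and 0.418, 0.277 and 0.477 CPM in SC. Such levels were below the stricter filter of 1 CPM and DESeq2's own filter. Gm11681, a noncoding RNA, had 4.005, 5.598 and 5.596 and 2.38, 2.40 and 2.64 CPM in EE (-1.02, adjusted p = 0.00899, lost without control mouse 3 at 0.0564) and 3.75, 6.76 and 3.78 and 4.66, 6.16 and 5.35 CPM in SC. In both genes the EE groups were separate and the SC groups overlapped, and the adjusted interaction p was 0.9998 for each.

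Some counts may include reads of a neighbor, because the sources used here do not say whether counting used the strand. Of the genes named above, Bdnf, Penk, Sort1, Thbs3, Sowaha, 4921539H07Rik, Camk4, Jun, Epha10, Efna3, Gabra5, Grin2b, Chrm1, Kcnh3, Nos1, Nr1d1, Col5a1, Mef2d, Amigo2, Gpr17, Gkap1, Map4k2 and Cast overlap exons of an opposite-strand gene, as 26.3% of decreased and 24.2% of increased genes do, beside 31.0% of all genes tested.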

How the data were processed

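RNA of single hippocampi was sequenced in 50-base single-end reads. The authors checked reads with FastQC 0.11.8, trimmed them with Trim Galore 0.6.4, aligned them to mm10 with STAR 2.6.1, discarded those of mapping quality 10 or lower and used Rsubread for exon counts per gene. The deposited values are these raw counts, with the 2 runs of each mouse merged. Whether counting used the strand is not given in the sources used here. The column of gene lengths was not used for a test.

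Counts were tested as deposited with edgeR 4.0.16 in R 4.3.3 (TMM normalization, filterByExpr, quasi-likelihood F test, Benjamini-Hochberg adjustment, threshold 0.05, no fold threshold). CPM values are TMM-normalized over the 6 EE mice, and over all 12 mice where EE and SC values stand side by side. Samples were grouped by the labels for genotype and housing, and the fits had no covariate. The interaction was tested over 12 mice. Gene positions come from GENCODE for GRCm38, and 55230 of 55471 identifiers matched a symbol. The fit was tested on simulated counts.

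Named genes are Crebbp, Ep300 and the driver genes, genes named in the study as reduced in CBP-ifKOs, the 12 decreased and 12 increased genes with the smallest p-values whose groups did not overlap and that held without control mouse 1, up to 4 members of each list by p-value, the 4 largest changes in each direction among genes of at least 1 CPM, and the 5 genes with the smallest interaction p-values. Amigo2, Coch, Gm13712, Htr2a, Kcnh3, Kcnq3, Npnt and Sema3e lie outside this rule and were chosen after their values were seen. The members and gene lists were chosen with earlier results of these data known. Alternatives were DESeq2 1.42.0 (its Wald test and its size factors), other filters, halved and thinned counts, a fit of all 12 mice, a replicate block, omission of the choroid plexus markers and omission of each mouse. Halving together with omission of control mouse 1 was added after seeing the data.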

Additional observations from a re-analysis of the deposited data

Results flagged for a closer look

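In 2 vascular genes the CBP-ifKOs lay below every control in SC and above every control in EE. Slco1a4, an organic anion transporter of brain endothelium, had 64.6, 63.7 and 67.4 CPM in SC controls and 57.2, 52.3 and 59.9 CPM in SC CBP-ifKOs. In EE it had 67.2, 67.1 and 58.6 CPM in controls and 81.0, 72.4 and 73.4 CPM in CBP-ifKOs. Its interaction on the log2 scale was 0.44 (standard error 0.10, unadjusted p = 3.97e-04 in edgeR), with an adjusted p of 0.9998. Myl9, a myosin light chain of smooth muscle, had 14.7, 14.998 and 22.7 CPM in SC controls and 10.9, 12.2 and 14.0 CPM in SC CBP-ifKOs. In EE it had 14.7, 9.81 and 13.9 CPM in controls and 25.1, 15.6 and 18.9 CPM in CBP-ifKOs. Its interaction was 1.13 (standard error 0.27, unadjusted p = 8.52e-04 in edgeR) and its adjusted p was 0.9998 as well. The difference between housings is not shown for either gene. CBP-ifKO mouse 1 was the highest of the EE mice in both genes and also in the summed meningeal markers (324 CPM), whose part in these values was not tested.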

How the results depend on the processing

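In EE the number of called genes was 1262 with DESeq2 (1000 decreased), 1677 without a filter on low counts (1295 decreased, 382 increased) and 1293 with all 12 mice in the fit (962 decreased, 331 increased). When 1 mouse was left out it ranged from 285 to 1016, with 241 to 735 decreased and 36 to 281 increased, and among the bona fide genes 107 to 154 decreased and 4 to 15 increased ones were called. Under the other alternatives the totals were within 1.5 times 805. Deviations from the group mean correlated at 0.116, 0.129 and 0.0430 between mice of equal replicate number. Between unequal numbers the correlations lay from -0.126 to 0.00349, so each mouse correlated best with its own number. Whether equal numbers share a batch was not tested. With the replicate block 1089 genes were called, of which 286 were increased, and 794 were among the 805. The interaction was called for 110 genes without a filter on low counts and for 0 in its other alternatives, in which edgeR gave 448 to 843 genes at an unadjusted p below 0.05 and DESeq2 545, and its smallest adjusted p was 0.122 without control mouse 1. The log2 fold change of Ep300 ranged from -0.0182 without control mouse 1 (-0.0184 with counts halved as well) to 0.2225 without control mouse 2, and that of Ttr from -4.8528 without control mouse 3 to 0.4874 without control mouse 1 (0.4876 with counts halved as well). The cause was not tested, except that fewer mice entered these fits. Of the 88 called genes that the rule names in the text, 67 stayed past the threshold wherever they were tested and 21 fell below it in at least 1 alternative. With 3 mice a group, changes of low-level genes are limited by counting error.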

Other observations

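Acta2 and Tagln, contractile genes of smooth muscle, were not called in EE. Acta2, smooth muscle actin, had 25.2, 13.3 and 23.1 CPM in controls and 52.3, 26.2 and 38.5 CPM in CBP-ifKOs (log2 fold change 0.92, standard error 0.25, adjusted p = 0.0600 in edgeR). Tagln, transgelin, had 1.43, 0.652 and 0.806 CPM in controls and 2.50, 1.23 and 1.59 CPM in CBP-ifKOs (log2 fold change 0.88, standard error 0.35, adjusted p = 0.188 in edgeR). The Tagln groups overlap, and its exons overlap an opposite-strand gene. In SC the log2 fold changes were -0.83 and -0.77 (adjusted p = 0.133 and 0.372 in edgeR). CBP-ifKO mouse 1 was the highest in both genes and also in the summed meningeal markers (324 CPM), and the part of vessel or meningeal tissue in these values was not tested.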
